A study of Mus musculus with 12 samples.

Results

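The 9 genes described here encode the enzymes that make and break down glycogen in skeletal muscle, and the proteins that control those enzymes: Gyg, Gys1, Gbe1, Pygm, Phka1, Phkg1, Ppp1r3a, Ppp1r3c and Ppp1r3d. They were chosen by name, as the transcript clusters of the expression table that the platform annotation pairs with exactly 1 symbol, that symbol being one of the 9. All 9 were found, each with 1 cluster, among 30412 clusters with exactly 1 symbol. RNA came from whole quadriceps muscle of 12 male mice aged 6 weeks, all on the C57BL/10 background and all utrn+/-;mdx, a genotype that lacks dystrophin through the mdx allele and has 1 mutant utrophin copy. The 4 groups of 3 mice were prednisolone (1.5 mg/kg per day in drinking water), spironolactone plus lisinopril (100 and 20 mg/kg per day in food pellets), eplerenone plus lisinopril (200 and 20 mg/kg per day in food pellets), and untreated mice on normal chow, with drugs given from 4 to 6 weeks of age. Prednisolone is a synthetic glucocorticoid, spironolactone and eplerenone are mineralocorticoid receptor antagonists, and lisinopril inhibits angiotensin-converting enzyme. No healthy mice and no drug-free pellet group were analysed here, so every value is one within dystrophic muscle, and the route of dosing differs between prednisolone and the combinations. Each mouse had its own array.

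Glycogen is the glucose store of muscle fibres. Glycogenin starts a new particle, glycogen synthase lengthens its chains and the branching enzyme adds side chains, while glycogen phosphorylase releases glucose units when the fibre contracts or is stimulated by adrenaline. Phosphorylase kinase switches phosphorylase on, and protein phosphatase 1, brought to the particle by targeting subunits of the Ppp1r3 family, switches glycogen synthase on and phosphorylase off. Glucocorticoids take their name from their effect on glucose metabolism.

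Ppp1r3c and Gys1 gave every call made among the 9 genes, and their upstream sequences are shown for that reason. Each is the 250 bases before the annotated gene start, read 5′ to 3′ on the gene's strand from RefSeq (GRCm38.p6), at chr19:36736605-36736854 on the minus strand for Ppp1r3c (gene ID 53412) and chr7:45434589-45434838 on the plus strand for Gys1 (gene ID 14936). Capitals mark the E-box CACGTG, the site bound by clock and Myc family factors, which was found in Ppp1r3c only of this pair, starting 104 bases before the gene start.
Ppp1r3c: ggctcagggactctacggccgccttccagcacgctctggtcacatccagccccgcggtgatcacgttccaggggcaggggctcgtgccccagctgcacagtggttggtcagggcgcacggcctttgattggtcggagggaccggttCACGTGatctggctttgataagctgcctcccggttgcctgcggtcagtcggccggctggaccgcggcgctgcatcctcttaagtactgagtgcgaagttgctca
Gys1: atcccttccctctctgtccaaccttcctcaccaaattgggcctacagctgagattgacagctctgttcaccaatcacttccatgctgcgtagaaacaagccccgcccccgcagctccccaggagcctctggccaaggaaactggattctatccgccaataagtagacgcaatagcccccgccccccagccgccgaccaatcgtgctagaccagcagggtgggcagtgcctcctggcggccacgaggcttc

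All 9 genes had a RefSeq window of this length, and 4 motifs were searched on both strands. CACGTG was present in 2 of the 9 (Ppp1r3c and Ppp1r3d) and in 6.02% of all 32851 windows. The full palindromic glucocorticoid receptor element was in 0 of the 9 and in 0.00913% of all windows. Its 6-base arm AGAACA, which lies within the full element, was in 1 of the 9 (Phkg1) and in 16.1% of all windows. The estrogen-related receptor site TCAAGGTCA was in 0 of the 9 and in 0.387% of all windows. These matches describe letters in the windows only.

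Prednisolone raised the glycogen synthase gene Gys1 against untreated muscle, and the targeting subunit gene Ppp1r3c was higher with prednisolone than with either drug combination. The signals are the authors' log2 values, so a difference of 1 is a doubling on that scale, and differences are given with their standard error (SE) from limma with n = 3 arrays per group. Gys1 was the 1 of 9 genes called higher with prednisolone against untreated, with 0 lower, beside 3.22% of all clusters called higher and 3.17% called lower at an adjusted p under 0.05. At an unadjusted p under 0.05 the count was 6 of 9, beside 21.6% of all clusters. In 6 of the 9 genes every prednisolone array lay above every untreated array, beside 13.4% of all clusters. The median difference of the 9 genes was 0.49, against -0.0132 over all tested clusters. A test over the 4 groups together (limma F-test, adjusted) passed for Ppp1r3c (adjusted p = 0.0306) and Gys1 (adjusted p = 0.042), beside 1.93% of all clusters. That count of 2 was 0 when any of 7 of the 12 arrays was left out alone: untreated array 2 or 3, spironolactone array 1, eplerenone array 1 or 3, or prednisolone array 1 or 2.

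**Figure D1:**
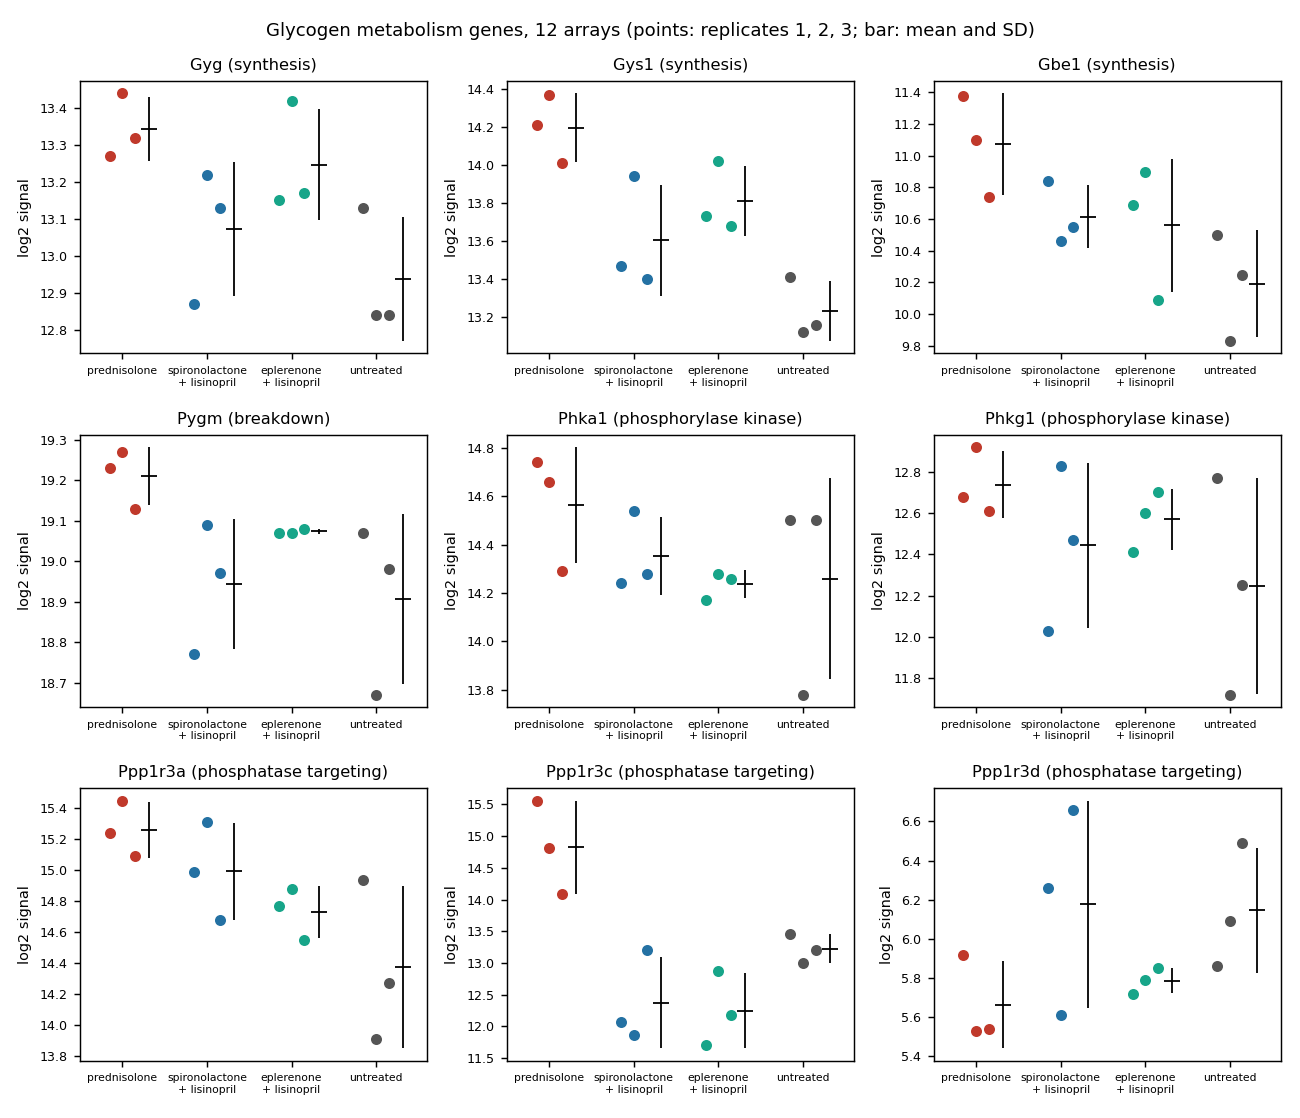
Deposited log2 signal (vertical axes, a separate scale for each gene) of the 9 genes in 12 arrays; points are the replicates of a group and the black mark beside them is the mean with its SD (n = 3). Ppp1r3c lies between 14.09 and 15.56 in prednisolone arrays, above all 9 other arrays, which lie between 11.70 and 13.46.

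The arrays were not equally placed within the untreated group, which bears on every difference from it. Taken as the median over the 9 genes of the deviation from each gene's own mean over 12 arrays, the untreated arrays 1, 2 and 3 stood at 0.04, -0.57 and -0.25. Untreated array 2 was also lowest of the 12 for the median of 10 myofibre markers (-0.24) and of 9 fast fibre markers (-0.39), and highest for 9 macrophage and monocyte markers (0.79). Untreated array 1 stood at 0.00, 0.01 and 0.07 for those lists. For 8 slow fibre markers untreated arrays 1, 2 and 3 stood at -0.47, 0.73 and -0.50, array 2 being the highest of the 12. The prednisolone arrays stood at -0.52, 0.66 and 0.58 for slow fibre markers. The prednisolone arrays 1, 2 and 3 stood at 0.39, 0.42 and 0.13 for the 9 genes, at 0.11, 0.19 and 0.06 for myofibre markers and at -0.42, -0.58 and -0.12 for macrophage markers. Of the 10 myofibre markers 3 were called higher with prednisolone and 0 lower. Of the 9 macrophage markers 0 were called higher and 4 lower. Over all clusters 3.22% were called higher and 3.17% lower in that comparison. Markers with a mean signal of 18 or more, a limit chosen after the values were seen, lie near the top of the table and numbered 6 of the 10 myofibre and 6 of the 9 fast fibre markers. All 3 myofibre markers that were called were among the 4 below it. The 3 fast fibre markers below it were Myoz1 at 1.06, Mylk2 at 0.77 and Tnni2 at 0.34, of which Myoz1 passed. All 3 were higher in prednisolone arrays with no overlap, beside 13.4% of all clusters. In the myofibre and fast fibre lists 0 of the bright markers were called, so every call came from the markers below the limit. The bright markers Ckm (0.17) and Ttn (0.31) were not called but were higher in prednisolone arrays with no overlap. The other bright markers of both lists overlapped untreated. The medians of both lists rest largely on the bright markers. Among the other lists, 1 of 9 fast fibre and 1 of 5 regenerating fibre markers were called higher. Called lower were 2 of 4 fibroblast, 1 of 5 neutrophil and 1 of 4 endothelial markers. Of the rest, 0 of 8 slow fibre, 0 of 5 adipocyte and 0 of 4 smooth muscle markers passed. The part of these shifts in the glycogen gene differences was not tested. In whole muscle, fewer fibres and less RNA per fibre cannot be told apart. Signal of skeletal muscle genes was high in every array. The muscle creatine kinase gene Ckm lay between 18.44 and 18.96, and the fast myosin gene Myh4 between 19.91 and 19.93, at the top of the table. Which muscle was sampled was not checked.

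**Figure D2:**
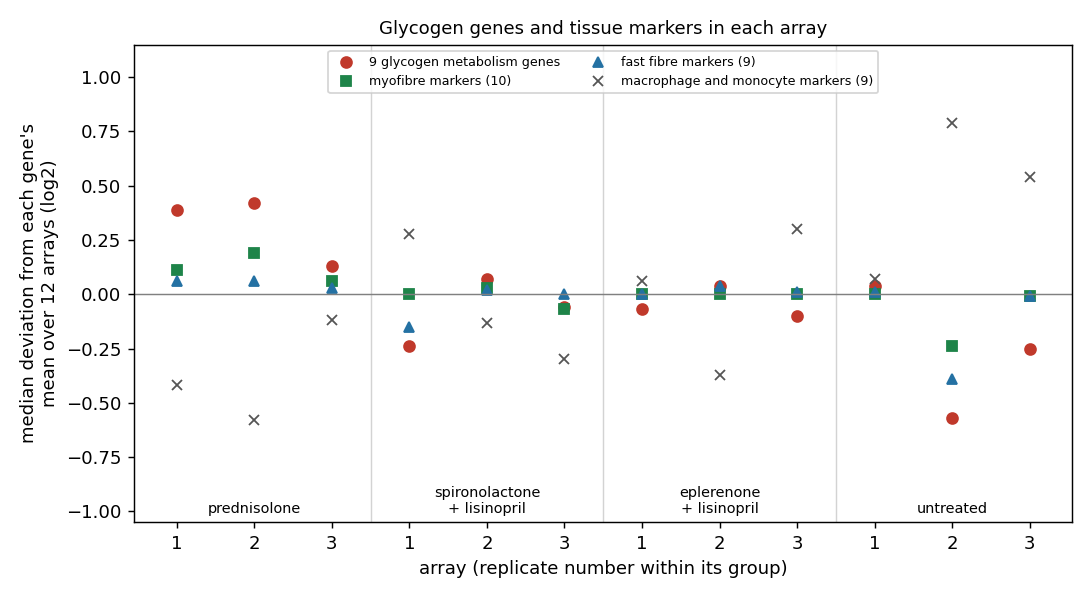
Median deviation (log2, vertical axis) of the 9 glycogen genes and of 3 marker lists from each gene's mean over 12 arrays, for each array (horizontal axis) by group. Untreated array 2 has the glycogen genes at -0.57, myofibre markers at -0.24 and macrophage markers at 0.79.

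Among the genes of synthesis, Gys1, which encodes the muscle glycogen synthase that lengthens the chains, changed most clearly. Its signal was 14.21, 14.37 and 14.01 in prednisolone arrays, 13.47, 13.94 and 13.40 with spironolactone plus lisinopril, 13.73, 14.02 and 13.68 with eplerenone plus lisinopril, and 13.41, 13.12 and 13.16 in untreated arrays. The groups order as prednisolone, eplerenone, spironolactone and untreated by their means, with no overlap between prednisolone and untreated. Gys1 rose by 0.97 ± 0.16 with prednisolone (1.96-fold, adjusted p = 0.00769). With eplerenone plus lisinopril the difference from untreated was 0.58 ± 0.16, again with no overlap, but it did not pass (adjusted p = 0.213). With spironolactone plus lisinopril it was 0.37 ± 0.16 (adjusted p = 0.28), and array 1 and 3 of that group lay near untreated array 1. Measured from untreated array 1 alone, the prednisolone difference of Gys1 was 0.79 and no longer passed, in a setting that leaves only 1 untreated array. Untreated arrays 2 and 3 were not taken alone in this way.

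Gbe1, the branching enzyme gene, missed the threshold narrowly. Its signal was 11.38, 11.10 and 10.74 with prednisolone, 10.84, 10.46 and 10.55 with spironolactone plus lisinopril, 10.69, 10.90 and 10.09 with eplerenone plus lisinopril, and 10.50, 9.83 and 10.25 untreated. All 3 prednisolone arrays lay above all 3 untreated arrays, a difference of 0.88 ± 0.24 (adjusted p = 0.0518), while both combinations overlapped untreated. Gyg, which encodes glycogenin, the primer of the particle, had a narrower range over the 12 arrays (0.60, against 1.55 for Gbe1). Gyg stood at 13.27, 13.44 and 13.32 with prednisolone, 12.87, 13.22 and 13.13 with spironolactone plus lisinopril, 13.15, 13.42 and 13.17 with eplerenone plus lisinopril, and 13.13, 12.84 and 12.84 untreated. Prednisolone and eplerenone arrays all lay above the untreated ones, at 0.41 ± 0.12 (adjusted p = 0.0758) and 0.31 ± 0.12 (adjusted p = 0.316), neither past the threshold. Without untreated array 1 the prednisolone differences of Gbe1 and Gyg passed, at 1.04 (adjusted p = 0.0356) and 0.50 (adjusted p = 0.0342). Of 21 alternatives, that of Gbe1 passed under 7 and that of Gyg under 1.

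The breakdown enzyme gene was not called in any comparison. Pygm, which encodes muscle glycogen phosphorylase, was at 19.23, 19.27 and 19.13 with prednisolone, 18.77, 19.09 and 18.97 with spironolactone plus lisinopril, 19.07, 19.07 and 19.08 with eplerenone plus lisinopril, and 19.07, 18.67 and 18.98 untreated. The prednisolone arrays were above all 9 others, but the difference from untreated was only 0.31 ± 0.11 (adjusted p = 0.143). These signals lie close to the top of the table, whose highest value is 19.93, and the 3 eplerenone arrays spanned 0.00483. Among 160 clusters with a mean signal from 18 to 20 the median residual SD was 0.104. It was 0.159 from 4 to 8, 0.156 from 8 to 12 and 0.196 from 12 to 16 (1372 clusters). The residual SD of Pygm itself was 0.137. Whether differences of Pygm are compressed at this end of the scale was not tested.

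Phosphorylase kinase is represented by its muscle regulatory subunit gene Phka1 and its muscle catalytic subunit gene Phkg1. Phka1 was at 14.74, 14.66 and 14.29 with prednisolone, 14.24, 14.54 and 14.28 with spironolactone plus lisinopril, 14.17, 14.28 and 14.26 with eplerenone plus lisinopril, and 14.50, 13.78 and 14.50 untreated. Phkg1 was at 12.68, 12.92 and 12.61 with prednisolone, 12.03, 12.83 and 12.47 with spironolactone plus lisinopril, 12.41, 12.60 and 12.70 with eplerenone plus lisinopril, and 12.77, 11.72 and 12.25 untreated. For both genes every group overlapped untreated: untreated array 1 lay within the range of the prednisolone arrays and untreated array 2 was the lowest of the 12. The prednisolone differences of 0.30 ± 0.19 (adjusted p = 0.398) for Phka1 and 0.49 ± 0.25 (adjusted p = 0.293) for Phkg1 did not pass, and from untreated array 1 alone they were 0.06 and -0.04. Without that array they were 0.42 (adjusted p = 0.248) and 0.75 (adjusted p = 0.0714).

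None of the 3 phosphatase targeting genes passed against untreated with any treatment. Ppp1r3c encodes the targeting subunit called protein targeting to glycogen. Its signal was 15.56, 14.82 and 14.09 with prednisolone, 12.07, 11.86 and 13.20 with spironolactone plus lisinopril, 11.70, 12.87 and 12.18 with eplerenone plus lisinopril, and 13.46, 13.00 and 13.21 untreated. All 3 prednisolone arrays were above the 9 others, and 5 of the 6 combination arrays were below the lowest untreated array, the exception being spironolactone array 3. Over the 12 arrays its range was 3.86, the widest of the 9 genes, and its residual SD within groups (0.60) was also the widest. Adipocyte markers, which mark fat cells within the muscle, were uneven over the same arrays, with median deviations of 1.33, -0.69 and 0.04 in prednisolone arrays, 0.42, -0.58 and 2.34 with spironolactone plus lisinopril, -0.78, -0.20 and 0.10 with eplerenone plus lisinopril, and -0.52, -1.17 and -0.37 untreated. Prednisolone array 1 and spironolactone array 3, each the highest of its group for Ppp1r3c, were also the highest of their groups for these markers, while in the eplerenone and untreated groups the highest arrays differed. The part of these markers in the result was not tested. Prednisolone against untreated gave 1.60 ± 0.43 (3.03-fold, 95% confidence interval 0.66 to 2.54), just outside the threshold (adjusted p = 0.0503), and it passed under 5 of 21 alternatives. Spironolactone plus lisinopril against untreated gave -0.85 ± 0.43 (adjusted p = 0.346) and eplerenone plus lisinopril -0.98 ± 0.43 (0.509-fold, adjusted p = 0.356), neither past the threshold.

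Ppp1r3a, the gene of the targeting subunit found mainly in striated muscle, was above untreated in 3 of 3 prednisolone arrays. Its signal was 15.24, 15.45 and 15.09 with prednisolone, 14.99, 15.31 and 14.68 with spironolactone plus lisinopril, 14.77, 14.88 and 14.55 with eplerenone plus lisinopril, and 14.94, 13.91 and 14.27 untreated. The differences from untreated were 0.88 ± 0.24 (adjusted p = 0.0518), 0.62 ± 0.24 (adjusted p = 0.255) and 0.36 ± 0.24 (adjusted p = 0.531) for prednisolone, spironolactone and eplerenone groups. From untreated array 1 alone the prednisolone difference was 0.32. Without that array it was 1.17 and passed (adjusted p = 0.0069), as did the spironolactone difference at 0.91 (adjusted p = 0.0497). Of 21 alternatives, the prednisolone difference of Ppp1r3a passed under 4 and the spironolactone difference under 1. Ppp1r3d, a targeting subunit gene with wide tissue expression, was the only member with a negative prednisolone difference. Ppp1r3d was at 5.92, 5.53 and 5.54 with prednisolone, 6.26, 5.61 and 6.66 with spironolactone plus lisinopril, 5.72, 5.79 and 5.85 with eplerenone plus lisinopril, and 5.86, 6.09 and 6.49 untreated. Its differences of -0.49 ± 0.24 (adjusted p = 0.267), 0.03 ± 0.24 (adjusted p = 0.966) and -0.36 ± 0.24 (adjusted p = 0.528) did not pass, and its signal is close to the array medians of all tested clusters (5.70 to 5.81).

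**Figure D3:**
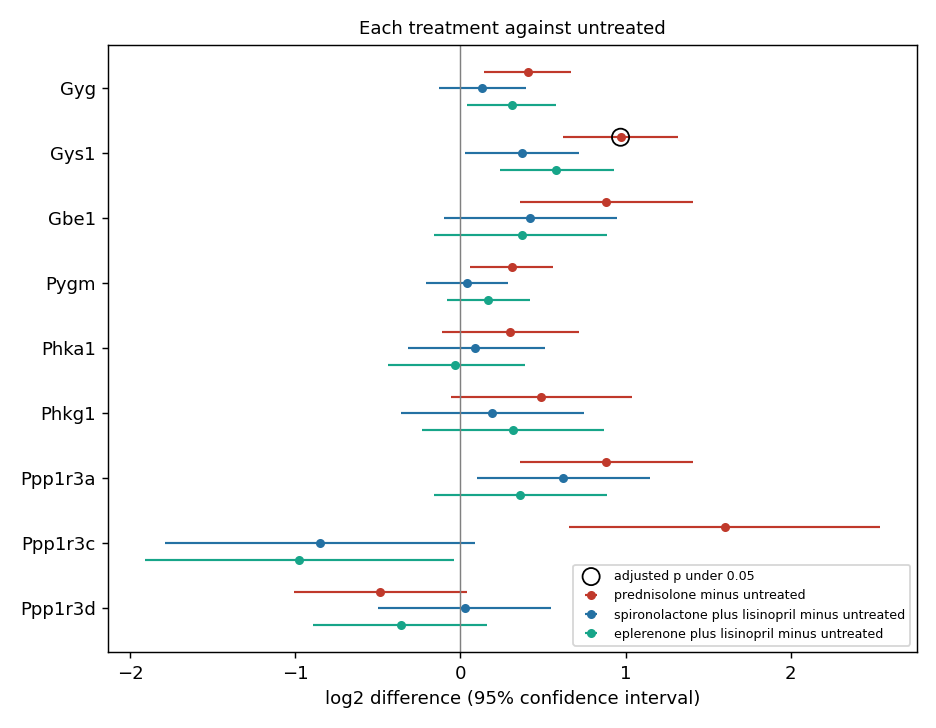
Log2 difference of each treatment from untreated (horizontal axis, with 95% confidence intervals from limma) for the 9 genes; a black ring marks an adjusted p under 0.05. Gys1 with prednisolone is ringed at 0.97, and Ppp1r3c lies at 1.60 with prednisolone but at -0.85 and -0.98 with the combinations.

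Neither combination called a glycogen gene against untreated. For spironolactone plus lisinopril limma called 0 of 9 (2 at an unadjusted p under 0.05), beside 0.0822% of all clusters called in either direction and 16.2% at the unadjusted threshold. For eplerenone plus lisinopril it called 0 of 9 (3 at an unadjusted p under 0.05), beside 0.0296% and 13.4% of all clusters. The groups did not overlap for 0 of 9 genes with spironolactone plus lisinopril (7.35% of all clusters higher and 13.1% lower). With eplerenone plus lisinopril they did not overlap for 4 of 9, with Gyg and Gys1 higher (7.7% of all clusters) and Ppp1r3c and Ppp1r3d lower (9.23%). The median difference of the 9 genes was 0.13 and 0.31 for the spironolactone and eplerenone groups, against -0.0447 and -0.0266 over all clusters. The 3 comparisons share the untreated arrays.

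The drug classes were then set against each other, a comparison that does not use the untreated arrays as a group. Ppp1r3c rose with prednisolone against spironolactone plus lisinopril by 2.45 ± 0.43 (5.45-fold, 95% confidence interval 1.51 to 3.39, adjusted p = 0.0337) and against eplerenone plus lisinopril by 2.57 ± 0.43 (5.96-fold, 95% confidence interval 1.63 to 3.51, adjusted p = 0.0268). It was the 1 gene of 9 called in each, beside 0.372% and 0.233% of all clusters called higher. These calls rest on few arrays. The first was lost without prednisolone array 1 (2.08, adjusted p = 0.117), prednisolone array 2 (2.45, adjusted p = 0.153), spironolactone array 1 (2.29, adjusted p = 0.118), spironolactone array 2 (2.19, adjusted p = 0.0944) or eplerenone array 3 (2.45, adjusted p = 0.0524). The second was lost without prednisolone array 1 (2.20, adjusted p = 0.111), prednisolone array 2 (2.58, adjusted p = 0.126), eplerenone array 1 (2.30, adjusted p = 0.117) or eplerenone array 3 (2.54, adjusted p = 0.0774).

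The other 8 genes did not pass in either comparison. Gys1 was 0.59 ± 0.16 higher with prednisolone than with spironolactone plus lisinopril, with no overlap (adjusted p = 0.101), and 0.38 ± 0.16 higher than with eplerenone plus lisinopril (adjusted p = 0.343), where prednisolone array 3 at 14.01 met eplerenone array 2 at 14.02. Arrays did not overlap for 4 of 9 genes against spironolactone plus lisinopril (Gyg, Gys1, Pygm and Ppp1r3c, all higher with prednisolone, beside 13.8% of all clusters). Against eplerenone plus lisinopril they did not overlap for 4 (Pygm, Phka1, Ppp1r3a and Ppp1r3c, all higher, beside 9.91%). Ppp1r3d was the only gene with a negative difference in both, at -0.52 ± 0.24 (adjusted p = 0.315) and -0.12 ± 0.24 (adjusted p = 0.893).

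**Figure D4:**
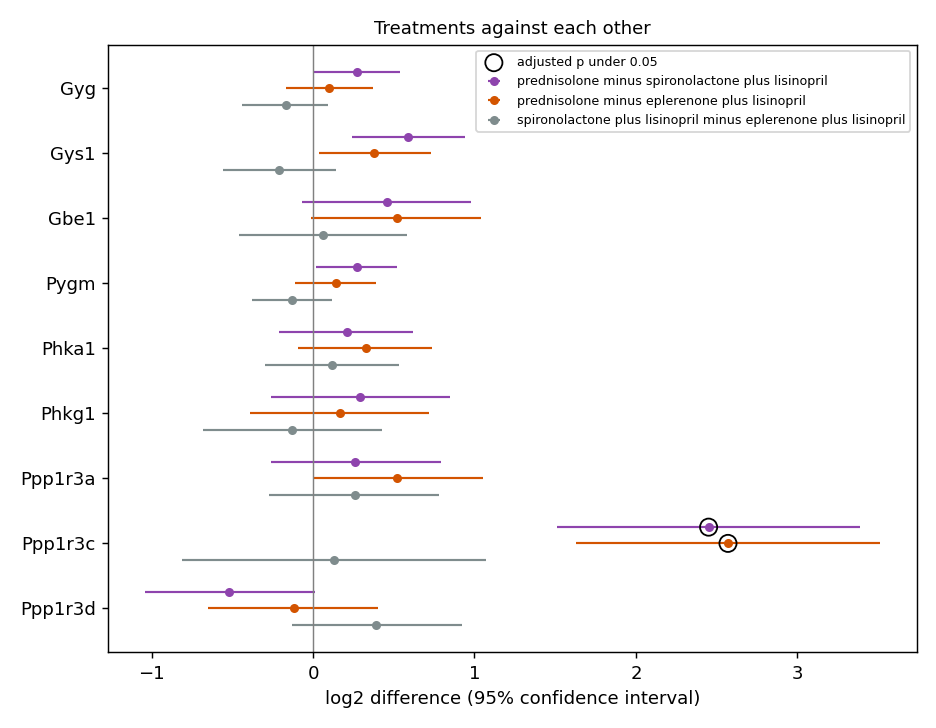
Log2 difference between treatments (horizontal axis, with 95% confidence intervals from limma) for the 9 genes; a black ring marks an adjusted p under 0.05. Ppp1r3c is ringed at 2.45 and 2.57 for prednisolone against the combinations and lies at 0.13 between the combinations.

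Spironolactone and eplerenone, each with lisinopril but at 100 and 200 mg/kg per day, gave no called difference: 0 of 9 genes passed in limma, with 0 at an unadjusted p under 0.05, beside 0% and 4.49% of all clusters. The differences of spironolactone minus eplerenone lay between -0.21 ± 0.16 for Gys1 and 0.39 ± 0.24 for Ppp1r3d. The intervals leave room for differences of some size: that of Ppp1r3c ran from -0.81 to 1.07 around 0.13, and that of Gys1 from -0.56 to 0.14.

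Other genes of glycogen handling were read from a list of 31, of which 27 had a cluster with exactly 1 symbol. With prednisolone 2 of the 27 were called higher and 1 lower, beside the 3.22% and 3.17% of all clusters, with a median difference of 0.21. Gsk3a encodes a kinase that phosphorylates and restrains glycogen synthase. It stood at 11.70, 11.63 and 11.54 with prednisolone, 11.46, 11.64 and 11.55 with spironolactone plus lisinopril, 11.47, 11.58 and 11.53 with eplerenone plus lisinopril, and 11.16, 11.05 and 11.02 untreated, so all 9 treated arrays were above the untreated ones. Gsk3a rose by 0.55 ± 0.08 with prednisolone (adjusted p = 0.00479), and its differences of 0.47 ± 0.08 (adjusted p = 0.0755) and 0.45 ± 0.08 (adjusted p = 0.104) with the spironolactone and eplerenone combinations did not pass. Without untreated array 1 both passed, at 0.52 (adjusted p = 0.0241) and 0.49 (adjusted p = 0.0312), but each passed under only that 1 of 21 alternatives. From untreated array 1 alone the prednisolone difference of Gsk3a was 0.46 and its call was lost, with only 1 untreated array left.

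The phosphoglucomutase genes went opposite ways. Pgm1, whose enzyme interconverts glucose 1-phosphate, the product of phosphorylase, and glucose 6-phosphate, rose by 0.68 ± 0.18 with prednisolone (14.73, 14.81 and 14.44 in prednisolone arrays, 14.30, 13.61 and 14.04 in untreated arrays, adjusted p = 0.0455). The call of Pgm1 held under 7 of 21 alternatives, and the difference was 0.36 from untreated array 1 alone and 0.84 without it. Pgm2, a related phosphopentomutase gene, fell by 1.21 ± 0.19 (8.19, 8.24 and 8.48 with prednisolone, 9.25, 9.26 and 10.02 untreated, adjusted p = 0.00619). From untreated array 1 alone the prednisolone difference of Pgm2 was -0.95 and missed the threshold, with only 1 untreated array left. With the spironolactone and eplerenone combinations Pgm2 was at -0.67 ± 0.19 (adjusted p = 0.181) and -0.70 ± 0.19 (adjusted p = 0.213). Neither passed, but both groups lay below the untreated arrays with no overlap, beside 13.1% and 9.23% of all clusters. The platform annotation gives these genes each other's symbols, and they are named here through their gene IDs. The other phosphorylase kinase subunits Phka2 (0.62 ± 0.18, adjusted p = 0.072) and Phkb (0.52 ± 0.17, adjusted p = 0.101) did not pass with prednisolone. The phosphatase 1 catalytic subunit genes Ppp1ca, Ppp1cb and Ppp1cc stood at 0.09, 0.20 and -0.24, none past the threshold.

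With the combinations 0 of the 27 passed in limma, beside 0.0822% (spironolactone) and 0.0296% (eplerenone) of all clusters called in either direction. The median difference of the 27 was 0.22 with spironolactone plus lisinopril and 0.11 with eplerenone plus lisinopril. Over all clusters 7.35% and 7.7% lay above untreated with no overlap in these comparisons. Pgm5 was above untreated with no overlap in both combinations, at 0.68 ± 0.19 (adjusted p = 0.178) and 0.54 ± 0.19 (adjusted p = 0.274). Prkag3, which encodes the AMP-activated kinase subunit of fast glycolytic muscle, had the widest difference in both. It stood at 10.52, 11.30 and 11.02 with spironolactone plus lisinopril, 10.70, 10.88 and 11.28 with eplerenone plus lisinopril, and 10.25, 9.39 and 9.30 untreated. All 6 combination arrays were above the untreated ones, by 1.30 ± 0.30 in each comparison (adjusted p = 0.151 for spironolactone and adjusted p = 0.168 for eplerenone). From untreated array 1 alone both differences of Prkag3 were 0.70. Without that array both were 1.60 and passed (adjusted p = 0.0284 for spironolactone and adjusted p = 0.0308 for eplerenone). Each passed under only that 1 of 21 alternatives.

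**Figure D5:**
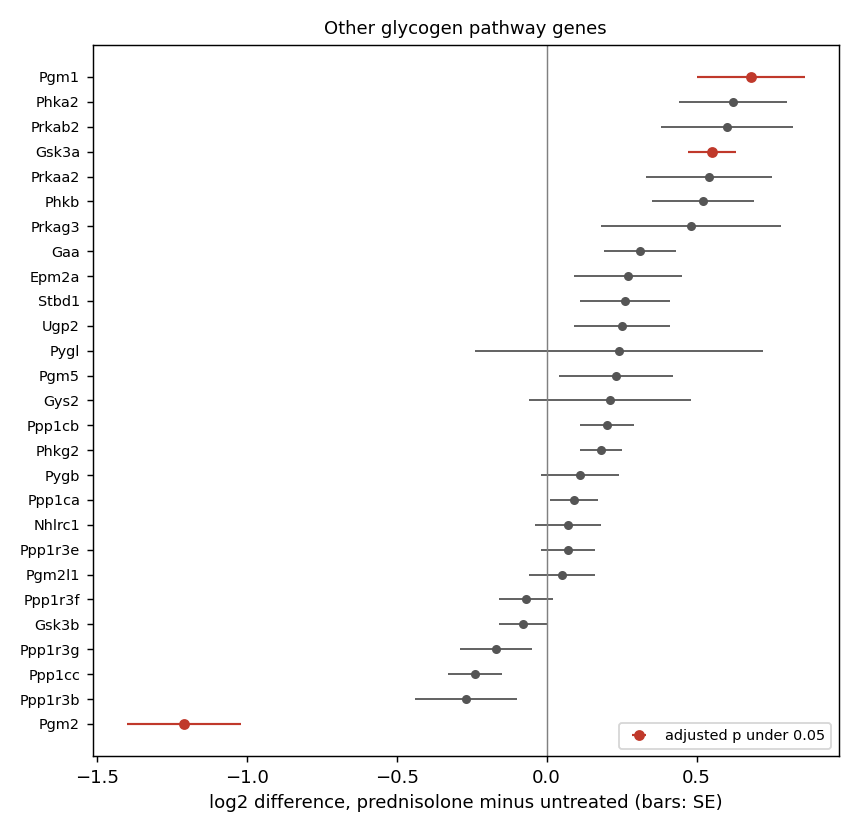
Log2 difference of prednisolone minus untreated (horizontal axis, bars are SE) for 27 other genes of glycogen handling, in order of the difference; red marks an adjusted p under 0.05. Pgm1 (0.68), Gsk3a (0.55) and Pgm2 (-1.21) are red.

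Of 8 measured genes of glucose entry, 1 was called higher with prednisolone and 0 lower, beside 3.22% and 3.17% of all clusters. Slc2a4, the insulin-responsive glucose transporter gene of muscle, was at 12.49, 12.57 and 12.12 with prednisolone and 11.34, 10.89 and 10.93 untreated, a rise of 1.34 ± 0.19 (adjusted p = 0.00405). From untreated array 1 alone the difference of Slc2a4 was 1.06 and no longer passed, with only 1 untreated array left. With the spironolactone and eplerenone combinations Slc2a4 was at 0.40 ± 0.19 (adjusted p = 0.319) and 0.51 ± 0.19 (adjusted p = 0.291). Other entry genes with the smallest p did not pass either. They were Irs1 (0.68 ± 0.25, adjusted p = 0.248) and Tbc1d4 (0.34 ± 0.15, adjusted p = 0.309) with spironolactone, and Akt2 (0.19 ± 0.08, adjusted p = 0.364) with eplerenone. Hk2, the muscle hexokinase gene that traps the sugar, was at -0.33 ± 0.24 with prednisolone (adjusted p = 0.482). Slc2a1, the basal transporter gene, was at -0.65, -0.63 and -0.77 with prednisolone, spironolactone and eplerenone groups, none past the threshold, and its untreated arrays 2 and 3 (9.88 and 9.46) were above array 1 (8.61). Without untreated array 1 all 3 differences of Slc2a1 passed, at -1.0 (adjusted p = 0.0164), -0.98 (adjusted p = 0.0464) and -1.12 (adjusted p = 0.0334). Each passed under only that 1 of 21 alternatives.

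Across single arrays the members did not all vary together. After each group's mean was taken out, the deviations of Pygm and Phkg1 correlated at r = 0.94 over the 12 arrays, those of Pygm and Phka1 at 0.88 and those of Gys1 and Ppp1r3a at 0.81, while Ppp1r3c correlated with Gys1 at 0.09 and with Ppp1r3a at 0.00. Ppp1r3c correlated more with Gbe1 (0.47) and Ppp1r3d (0.58). Ppp1r3d ran opposite to Gys1 (-0.66) and Ppp1r3a (-0.61). These values are a description, since all genes of an array share its tissue sample and normalization. A mean of the 9 genes was taken per array without scaling, so Ppp1r3c, with the widest range (3.86), weighs most in it. Among 19498 other named genes, those whose signals over 12 arrays followed the mean of the 9 genes most closely were Dcaf6 (r = 0.957), Art3 (0.954), Igfbp3 (0.949), Atp5c1-ps (0.949) and Rb1cc1 (0.937). Those that ran most opposite were Stt3a (-0.955), Ywhaz (-0.953), Slc31a1 (-0.949), Rab1a (-0.945) and Pip4k2a (-0.945). For Ppp1r3c alone, a pattern singled out after its values were seen, the closest were C7 (0.941), Svip, Fbxo32 and Slit3 (0.929 each) and Trim67 (0.922). The most opposite to Ppp1r3c were Tmem41b and Copa (-0.914 each), Bub3 (-0.912), Dctn5 (-0.908) and Slc39a9 (-0.905).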

How the data were processed

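Quadriceps RNA was measured on single-channel Affymetrix arrays after GeneChip WT PLUS labelling, per the labels. The authors deposited log2 signals; per the submitters' processing notes these come from RMA, Affymetrix Expression Console and Transcriptome Analysis Console. Versions and the build of the array annotation were not stated in those notes. The 65587 clusters lie between 1.61 and 19.93, and how values passed 16, the top of a 16-bit scanner on this scale, is not stated. Symbols came from the platform's probe table, with 827 updated through gene IDs. In R 4.3.3, limma 3.58.1 (lmFit and eBayes, two-sided) estimated the mean of each group from the 12 arrays together, with Benjamini-Hochberg adjustment over the 30412 clusters of 1 symbol and a threshold of 0.05. Residual degrees of freedom were 8, with 2.94 added by the prior, the median SE was 0.129, and the procedure was tested on simulated data. With 3 arrays a side, exact permutation reaches no p under 0.1. Members and lists were chosen with earlier results of these data known. The text names all 9 members, list genes past the threshold or else those with the smallest p, the genes with the highest and lowest r, and Hk2, Phka2, Phkb and the Ppp1c genes, chosen after their values were seen. Alternatives covered normalization, dim clusters, variance prior, array weights, replicate block, clusters tested and arrays left out.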

Additional observations from a re-analysis of the deposited data

How the results depend on the processing

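Of 21 alternatives to the deposited values and the fit, 12 left out 1 array each. The call of Gys1 with prednisolone held in 20 of 21, the exception being untreated array 1 as the lone untreated array (0.79, adjusted p = 0.2), a setting that also leaves fewer arrays. The count of glycogen genes called with prednisolone against untreated was 1. It was 2 with quantile normalization and with the replicate block, 4 with the dimmest 33.3% of clusters left out and with array weights (Gys1, Gbe1, Ppp1r3a and Ppp1r3c in both), 0 with untreated array 1 as the lone untreated array, and 1 to 4 with an array left out (4 without untreated array 1, with Gyg, Gys1, Gbe1 and Ppp1r3a). Over all clusters that comparison called 1942, and between 146 (the lone untreated array) and 2643 (without untreated array 1) under the alternatives. The same counts were 25 (0 to 534) and 9 (0 to 432) for the spironolactone and eplerenone combinations against untreated, 250 (23 to 990) and 185 (27 to 380) for prednisolone against them, and 588 (26 to 1271) for the F-test. The count for prednisolone against spironolactone plus lisinopril (1) was 0 with the replicate block, with all clusters tested, with only the groups compared and with the lone untreated array, and 0 to 1 with an array left out. For prednisolone against eplerenone plus lisinopril (1) it was 0 with the replicate block and with only the groups compared, and 0 to 1 with an array left out. The F-test count (2) was 1 with quantile normalization, with the replicate block and with all clusters tested, 0 with the lone untreated array, and 0 to 3 with an array left out. For spironolactone plus lisinopril against untreated (0) it was 0 to 1, with Ppp1r3a called at 0.91 without untreated array 1. The other glycogen list had 3 calls with prednisolone, 0 with the lone untreated array and 2 to 6 with an array left out, and 0 to 2 with either combination. The cause of these changes was not tested.

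Deviations of same-numbered arrays correlated between -0.24 and 0.16, and those of differently numbered arrays between -0.30 and 0.27. Between the 2 combinations these ranges were -0.01 to 0.10 and -0.15 to 0.05. With 3 same-numbered pairs per comparison, these values cannot decide whether the numbers pair the mice. The replicate block is given as an alternative. Under it both calls of Ppp1r3c were lost, at 2.45 (adjusted p = 0.0787) and 2.57 (adjusted p = 0.0756) against the spironolactone and eplerenone combinations. Values that changed sign were all uncalled. With the lone untreated array these were Phkg1 (-0.04), Prkag3 (-0.12) and Slc2a1 (0.06) for prednisolone, Gyg (-0.06), Phka1 (-0.15), Phkg1 (-0.33), Pygm (-0.13), Pgm1 (-0.10) and Slc2a1 (0.08) for spironolactone, and Phkg1 (-0.21), Ppp1r3a (-0.21) and Tbc1d4 (-0.23) for eplerenone. Phka1 was at 0.04 for eplerenone with quantile normalization. With array weights Ppp1r3d was at -0.11 for spironolactone and Ppp1r3c at -0.09 between the combinations. With 1 array left out, values for spironolactone against untreated ran from -0.15 to 0.21 (Phka1), -0.07 to 0.46 (Phkg1), -0.21 to 0.31 (Ppp1r3d) and -0.08 to 0.12 (Pygm). For eplerenone against untreated they ran from -0.27 to 0.09 (Phka1) and -0.04 to 0.26 (Tbc1d4). Between the combinations they ran from -0.18 to 0.23 (Gbe1), -0.32 to 0.08 (Phkg1) and -0.28 to 0.44 (Ppp1r3c). No second cluster existed for any of the 9 genes, so the alternative choice of cluster was not run.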
